A study of Mus musculus with 6 samples.

Results

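The cytochrome P450 enzymes of families 1, 2 and 3 are described here in livers from mice with and without hepatocyte SHMT2. A gene was taken as a member when its symbol consisted of Cyp, a family number from 1 to 3, a subfamily letter and a gene number, and when it had at least 10 counts in at least 3 of the 6 libraries. The rule gave 46 members of the 49671 genes in the count table. Another 12 genes had matching symbols but stayed below the minimum, with at most 21 counts in any library, and 5 of these were at 0 in every library. The minimum looked at all libraries together and made no use of genotype.

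These enzymes sit in the membrane of the endoplasmic reticulum, carry a heme group and oxidise drugs, environmental chemicals, steroids, retinoids and fatty acids. They take electrons from the reductase Por, for some reactions through cytochrome b5, and their transcription in liver is controlled by the aryl hydrocarbon receptor Ahr and by the nuclear receptors CAR (Nr1i3) and PXR (Nr1i2). Many of them are made mainly by the hepatocytes around the central vein, and several differ between male and female mice through the pattern of growth hormone secretion. Most of the genes lie in tandem clusters that arose by duplication, so neighbours are often nearly identical in sequence.

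RNA-seq was performed on livers of 3 SHMT2 HKO mice, which combine a floxed SHMT2 allele with Cre recombinase under the hepatocyte-specific albumin promoter, and on livers of 3 SHMT2 fl/fl mice, which the labels call WT and the study describes as floxed controls. All were males on the C57BL/6J background that received the AMLN diet, a fatty liver diet with added fructose and cholesterol, for 18 weeks starting at 4 weeks of age, so no library came from a chow-fed mouse. The livers were collected at 22 weeks of age after a short fast. The study proposes that liver cells other than hepatocytes keep SHMT2 in this model. Each mouse is taken as 1 sample because the labels number them separately.

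Shmt2 (ENSMUSG00000025403) was at 94.6, 109.0 and 93.9 CPM (counts relative to the library total, scaled by edgeR's TMM factors) in control mice 1 to 3 and at 24.9, 28.3 and 19.3 CPM in SHMT2 HKO mice 1 to 3. Its log2 fold change was -2.04 ± 0.16 (SE), with an adjusted p of 0.00064 in edgeR's quasi-likelihood test, and every library went with its label. The libraries held 23090837 to 34089722 gene counts, at which 3 counts correspond to 0.0880 to 0.130 CPM without TMM factors. Of 5 matched hepatocyte marker genes, all were abundant in every library, and their summed level was 47636 to 59067 CPM in SHMT2 fl/fl and 59071 to 88830 CPM in SHMT2 HKO livers. Of these 5, Ttr rose (adjusted p = 0.050, log2 fold change 0.82, -0.055 with ERCC scaling) and the other 4 did not pass the test.

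The windows upstream of 6 members show how alike and how unlike neighbouring genes of these families are. They are 250 bases ending before the RefSeq transcription start (GRCm38.p6), printed from 5′ to 3′ along the gene, with TATAAA in capitals. Cyp2a4 and Cyp2a5 are shown because the first fell and the second did not pass the test, Cyp2c37 and Cyp2c50 because they had the largest rises with a listed start, Cyp2c55 because it fell in the same gene cluster, and Cyp2e1 because it was the member with the highest level in SHMT2 HKO livers.
Cyp2a4, chr7:26306942-26307191, plus strand: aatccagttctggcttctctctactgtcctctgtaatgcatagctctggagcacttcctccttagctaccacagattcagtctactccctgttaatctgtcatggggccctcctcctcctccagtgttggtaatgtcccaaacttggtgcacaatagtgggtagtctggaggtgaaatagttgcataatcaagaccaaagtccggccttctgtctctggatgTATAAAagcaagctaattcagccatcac
Cyp2a5, chr7:26835089-26835338, plus strand: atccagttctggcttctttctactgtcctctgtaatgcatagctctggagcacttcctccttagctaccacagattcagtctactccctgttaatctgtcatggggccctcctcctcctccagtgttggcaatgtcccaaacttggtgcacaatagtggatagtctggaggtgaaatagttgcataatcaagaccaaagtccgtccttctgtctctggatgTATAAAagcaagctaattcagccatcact
Cyp2c37, chr19:39992174-39992423, plus strand: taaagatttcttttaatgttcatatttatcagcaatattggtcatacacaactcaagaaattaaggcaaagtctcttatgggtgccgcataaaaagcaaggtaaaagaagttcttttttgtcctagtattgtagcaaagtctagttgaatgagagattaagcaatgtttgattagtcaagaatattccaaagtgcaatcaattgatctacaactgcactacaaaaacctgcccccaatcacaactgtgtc
Cyp2c50, chr19:40089429-40089678, plus strand: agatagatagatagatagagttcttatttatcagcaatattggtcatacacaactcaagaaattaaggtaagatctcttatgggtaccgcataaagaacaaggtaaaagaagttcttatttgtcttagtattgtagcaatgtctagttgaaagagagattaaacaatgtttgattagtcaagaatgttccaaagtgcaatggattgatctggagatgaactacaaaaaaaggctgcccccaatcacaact
Cyp2c55, chr19:39006769-39007018, plus strand: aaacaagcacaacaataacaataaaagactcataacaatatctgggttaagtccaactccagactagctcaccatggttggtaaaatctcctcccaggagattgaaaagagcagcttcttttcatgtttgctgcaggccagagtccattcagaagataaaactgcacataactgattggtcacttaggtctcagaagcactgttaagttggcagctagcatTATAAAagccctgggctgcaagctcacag
Cyp2e1, chr7:140763569-140763818, plus strand: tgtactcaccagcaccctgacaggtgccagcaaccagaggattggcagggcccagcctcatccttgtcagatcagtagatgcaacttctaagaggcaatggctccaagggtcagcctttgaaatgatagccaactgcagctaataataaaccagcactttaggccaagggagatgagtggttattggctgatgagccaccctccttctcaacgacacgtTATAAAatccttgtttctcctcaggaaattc

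The Cyp2a4 and Cyp2a5 windows were 98.4% identical over their aligned bases, with 4 mismatches, and the Cyp2c37 and Cyp2c50 windows were 87.8% identical, with 30 mismatches. TATAAA, searched on both strands, began 28 bases before the start in Cyp2a4, 29 bases before it in Cyp2a5 and Cyp2c55 and 31 bases before it in Cyp2e1, and the letters are not in the Cyp2c37 and Cyp2c50 windows. A RefSeq window was matched by symbol for 40 of the 46 members, 35 of them within 100 bases of the GENCODE start. TATAAA was present in 52.5% of these and in 12.4% of all 32851 windows of the same length, AGGTCA, the hexamer bound by many nuclear receptors, in 27.5% and 14.0%, GCGTG, the core bound by Ahr, in 12.5% and 28.2%, and TTCNNNGAA, the palindrome bound by STAT factors, in 0 windows of members and 7.02% of all windows. Duplicated genes share windows, so the 40 windows are not independent sequences.

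Across the 46 members, 18 rose and 4 fell in SHMT2 HKO livers at an adjusted p under 0.05 and 24 did not pass. Over all 16089 genes tested, 12.5% rose, 16.5% fell and 29.0% passed in either direction. The median log2 fold change of the members was 0.84, with 34 of 46 above 0, and that of all genes was 0.03, with 51.9% above 0. For the 5 matched hepatocyte markers the median was 0.56, and 1 of them passed. All 3 SHMT2 HKO mice were above all 3 SHMT2 fl/fl mice for 20 members and below them for 5, against 21.9% and 25.0% of all genes, and the groups overlapped for the remaining 21. The largest rises belonged to Cyp2c37, Cyp2c54 and Cyp2c50 and the largest falls to Cyp2a4 and Cyp2s1.

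**Figure D1:**
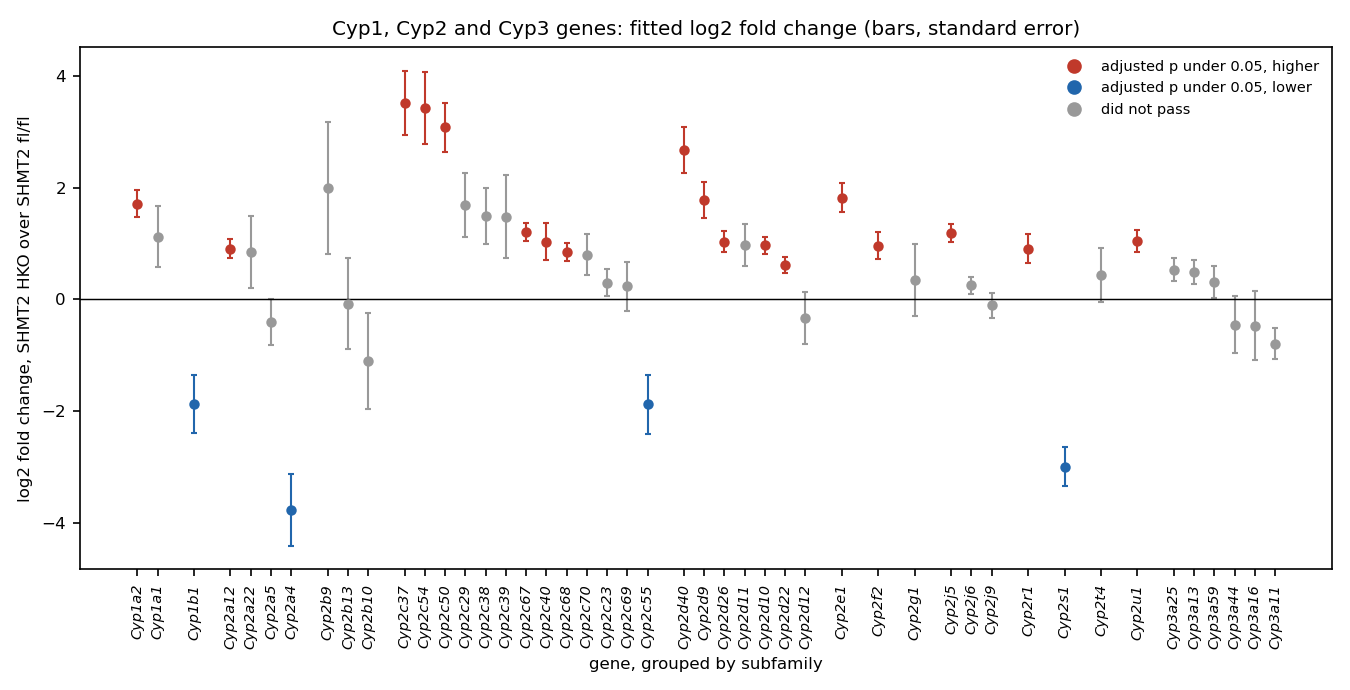
Fitted log2 fold change (SHMT2 HKO over SHMT2 fl/fl, points) with its standard error (bars) for each of the 46 members, grouped by subfamily on the x axis. The 18 red points rose and the 4 blue points fell at an adjusted p under 0.05, and the grey points, which include all Cyp2b and Cyp3a members, did not pass.

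These directions depend on the scaling. TMM assumes that most genes do not differ, whereas scaling to the ERCC spike-in RNA moved the median log2 fold change of all genes by -0.72 and scaling to the library total alone moved it by -0.42. With ERCC scaling 5 members rose (Cyp2c37, Cyp2c50, Cyp2c54, Cyp2d40 and Cyp2e1) and 7 fell (Cyp1b1, Cyp2a4, Cyp2a5, Cyp2b10, Cyp2c55, Cyp2s1 and Cyp3a11), against 0.665% and 17.1% of all genes. Under that scaling 17 of the 18 members that rose with TMM stayed above 0 and Cyp2d22 went to -0.16, while with the library total all 18 stayed above 0. The 4 members that fell with TMM stayed below 0 under both. Scaled to the library total, 14 members rose and 5 fell, against 3.35% and 30.6% of all genes. With other tools on the main scale, 20 members rose and 5 fell with DESeq2 (15.8% and 17.9% of all genes), and 18 rose and 5 fell with limma-voom (12.4% and 17.4%). The spike-in reads made up 1.35 to 2.75% of all counts, with the lowest and highest share both in SHMT2 HKO libraries.

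**Figure D2:**
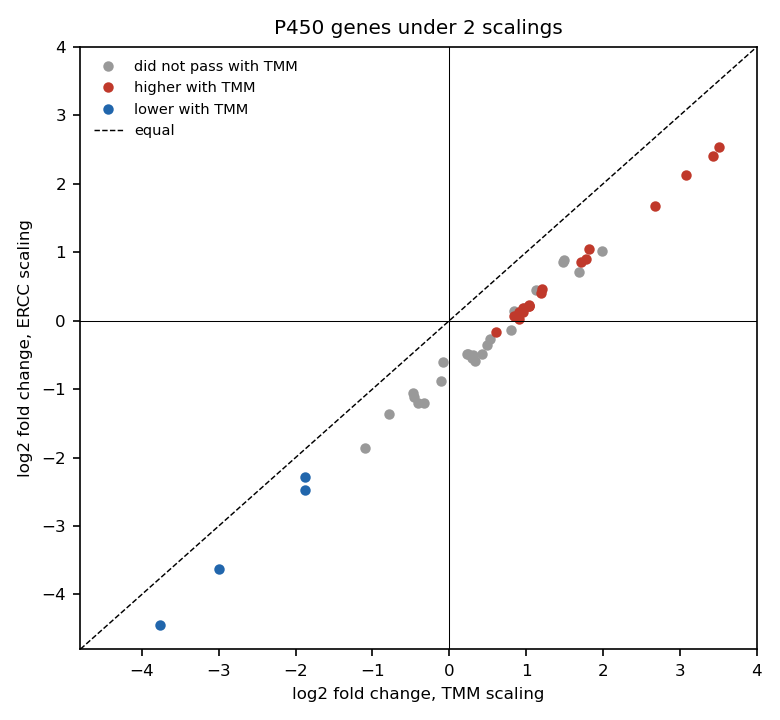
Log2 fold change of each of the 46 members with TMM scaling (x axis) and with ERCC spike-in scaling (y axis). The points lie below the dashed line of equality, and those with a small rise under TMM reach 0 or below under ERCC scaling, Cyp2d22 among the members that rose.

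Per kilobase of transcript, the members together stood at 4296, 5442 and 5253 RPKM in SHMT2 fl/fl mice 1 to 3 and at 10443, 10130 and 7537 RPKM in SHMT2 HKO mice 1 to 3. On this TMM scale the groups did not overlap, and the means were 4997 ± 614 and 9370 ± 1595 RPKM (SD, n = 3), a ratio of 1.88. With ERCC scaling the groups overlapped, with SHMT2 HKO mouse 1 the lowest and SHMT2 HKO mouse 3 the highest of all mice. The log2 ratio of 0.91 became 0.47 with the library total and 0.12 with ERCC scaling. The members took 1.03 to 1.27% of all gene counts in SHMT2 fl/fl and 1.42 to 1.57% in SHMT2 HKO libraries. This share is itself a scaling to the library total.

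Per kilobase of the longest coding transcript, the member with the highest RPKM was Cyp3a11 in SHMT2 fl/fl and Cyp2e1 in SHMT2 HKO livers. Cyp3a11, the mouse counterpart of the main human drug-metabolising P450, held 26.8, 30.7 and 28.4% of the summed RPKM in SHMT2 fl/fl mice 1 to 3 and 5.25, 8.93 and 13.8% in SHMT2 HKO mice 1 to 3. Cyp2e1, which oxidises ethanol and acetaminophen, held 16.8, 22.9 and 20.3% in the controls and 39.2, 37.2 and 37.9% in SHMT2 HKO mice. The ratio of Cyp2e1 to Cyp3a11 RPKM, which any scaling factor leaves as it is but the length used does not, was 0.627, 0.745 and 0.716 in SHMT2 fl/fl and 7.45, 4.16 and 2.75 in SHMT2 HKO mice, with no overlap between the groups. This pair was chosen after its values were seen, so the ratio carries no test. The order in controls depends on the length, since the merged exons of Cyp3a11 span 5093 bases and its coding transcript 2344. Per kilobase of merged exons, Cyp2e1 was above Cyp3a11 in every mouse, at ratios of 1.16, 1.37 and 1.32 in SHMT2 fl/fl and 13.8, 7.68 and 5.07 in SHMT2 HKO mice, and Cyp3a11 held 16.4, 19.1 and 17.4% of the sum in SHMT2 fl/fl and 2.96, 5.08 and 8.0% in SHMT2 HKO mice. The Cyp2d total went from 852 ± 73.9 to 2018 ± 432 RPKM and the Cyp2c total from 440 ± 70.0 to 1069 ± 430 RPKM, while the Cyp3a total went from 1602 ± 268 to 1064 ± 243 RPKM (SD, n = 3), or from 822 to 609 RPKM by merged exons.

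**Figure D3:**
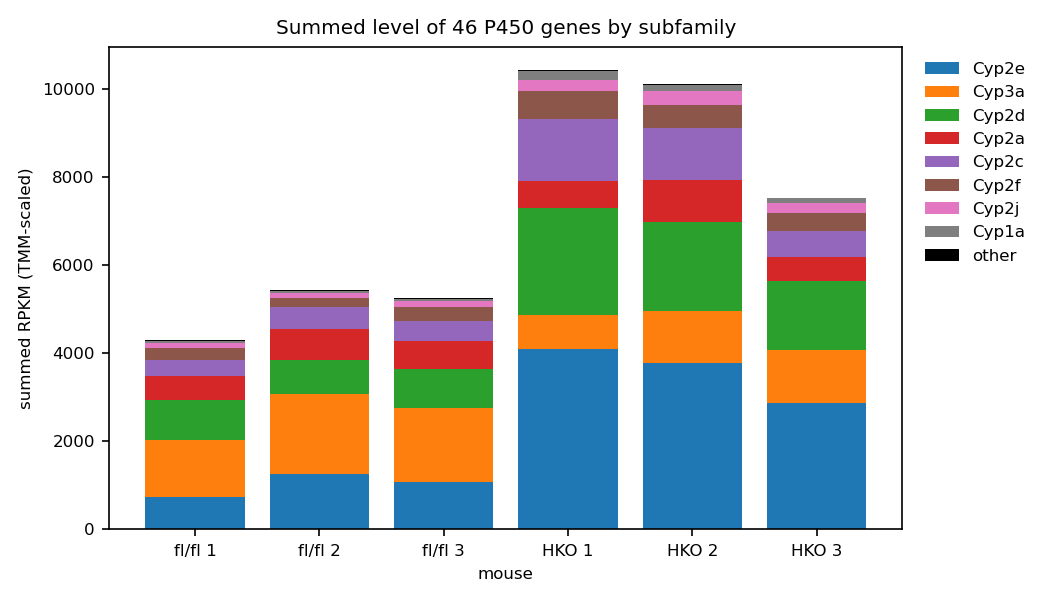
Summed RPKM of the 46 members in each mouse (TMM-scaled, length of the coding transcript), stacked by subfamily, with small subfamilies joined as other. The SHMT2 fl/fl bars end between 4296 and 5442 and the SHMT2 HKO bars between 7537 and 10443, with a larger Cyp2e segment and a smaller Cyp3a segment in every SHMT2 HKO mouse.

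Of the 8 members listed as pericentral, made around the central vein, 5 rose and none fell, against 12.5% and 16.5% of all genes. The other 3 did not pass, Cyp2c29 at a log2 fold change of 1.69, Cyp3a11 at -0.79 and Cyp2a5 at -0.40, and with ERCC scaling both Cyp3a11 and Cyp2a5 fell (adjusted p = 0.0059 and 0.028). Cyp2e1 (chr7:140763739-140774987, GRCm38) was at 1324, 2280 and 1959 CPM in SHMT2 fl/fl mice and 7495, 6905 and 5238 CPM in SHMT2 HKO mice. Its log2 fold change was 1.82 ± 0.26 (SE, adjusted p = 0.0026), every SHMT2 HKO mouse lay above every control, and it passed in all 16 settings tried. Cyp1a2, which metabolises caffeine and arylamines and is a classical Ahr target, was at 78.2, 96.7 and 93.7 CPM in SHMT2 fl/fl and 401.1, 276.2 and 201.5 CPM in SHMT2 HKO mice, again without overlap. Its log2 fold change was 1.71 ± 0.25 (adjusted p = 0.0026). Its cluster neighbour Cyp1a1, the most inducible Ahr target, stayed near the detection floor, between 0.226 and 0.587 CPM in SHMT2 fl/fl and between 0.354 and 1.10 CPM in SHMT2 HKO mice, and did not pass (adjusted p = 0.16).

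The other 3 pericentral members that rose are neighbours on chromosome 19. Cyp2c37, Cyp2c54 and Cyp2c50, which hydroxylate or epoxidise arachidonic acid, follow each other directly at chr19:39992424-40012243, chr19:40037940-40073827 and chr19:40089688-40113950 (GRCm38). Cyp2c37 was at 6.83, 15.4 and 10.5 CPM in SHMT2 fl/fl and 146.5, 183.7 and 42.8 CPM in SHMT2 HKO mice. Cyp2c54 was at 4.82, 10.4 and 4.41 CPM in SHMT2 fl/fl and 108.1, 80.0 and 20.6 CPM in SHMT2 HKO mice. The lowest SHMT2 HKO mouse, mouse 3, was still above the highest control for both.

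Cyp2c50, the most abundant of the 3, was at 29.6, 47.4 and 32.8 CPM in SHMT2 fl/fl and 364.3, 429.8 and 131.4 CPM in SHMT2 HKO mice. The log2 fold changes were 3.52 ± 0.58 for Cyp2c37 (adjusted p = 0.0056), 3.43 ± 0.65 for Cyp2c54 (adjusted p = 0.0092) and 3.08 ± 0.44 for Cyp2c50 (adjusted p = 0.0030), which corresponds to 11.4, 10.7 and 8.43-fold. Cyp2c54 reached an adjusted p of 0.050 without SHMT2 fl/fl mouse 3 and ranged from 4.3e-05 to 0.076 over the settings tried. The coding sequences of these 3 genes were 95.1 to 96.1% identical, and 4.70 to 9.40% of the 100-base words of each transcript also occur in another gene. Reads from such shared stretches may not be assignable to a single gene.

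The 12 members of this cluster span 1180 kb, and 6 of them rose while 1 fell, against 12.5% and 16.5% of all genes. Elsewhere in the cluster, Cyp2c67, Cyp2c68 and Cyp2c40 rose by 1.20, 0.84 and 1.03 on the log2 scale. Cyp2c40, a female-biased gene, was low, with 0.835 to 1.09 CPM in SHMT2 fl/fl and 1.54 to 2.63 CPM in SHMT2 HKO mice, and its adjusted p of 0.048 went above 0.05 when any single control or SHMT2 HKO mouse 1 or 2 was left out (0.074 to 0.16), over a range of 0.029 to 0.80 across settings. Its transcript also shared 44.1% of its 100-base words with other genes, mostly Cyp2c69, which stayed at 0.574 to 1.61 and 1.02 to 1.77 CPM in the 2 groups and did not pass (adjusted p = 0.73). Cyp2c67 and Cyp2c68 were 97.7 and 98.1% identical to Cyp2c40 over aligned coding bases and shared 23.7 and 19.8% of their words with other genes. Their mean levels in SHMT2 fl/fl were 39.9 and 33.6 RPKM, against 0.528 RPKM for Cyp2c40. Whether reads of these genes entered the Cyp2c40 counts was not tested.

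Cyp2c29, a pericentral gene that CAR activators induce, was at 69.1, 199.3 and 162.2 CPM in SHMT2 fl/fl and 591.7, 633.0 and 161.0 CPM in SHMT2 HKO mice. SHMT2 HKO mouse 3 lay within the range of the controls, and the log2 fold change of 1.69 ± 0.58 did not pass (adjusted p = 0.066). Without that mouse it passed with an adjusted p of 0.014, at a log2 fold change of 2.07, and the adjusted p ranged up to 0.28 across settings. Cyp2c70, which makes the muricholic acids of mouse bile and had a level in SHMT2 fl/fl livers (121 ± 13.0 RPKM, SD, n = 3) within the spread of that of Cyp2c23 (120 ± 6.21 RPKM), was at 608.6 CPM in SHMT2 HKO mouse 1 but at 268.6 and 205.5 CPM in mice 2 and 3, against 187.4 to 231.7 CPM in controls (adjusted p = 0.14). Cyp2c38 and Cyp2c39 had overlapping groups and log2 fold changes of 1.49 and 1.48 that did not pass, and Cyp2c23, which lies apart from the cluster, was at 0.30 (adjusted p = 0.38).

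At the other end of the cluster, Cyp2c55 (chr19:39007019-39042693) fell. It was at 8.39, 19.4 and 15.2 CPM in SHMT2 fl/fl and 1.27, 6.03 and 4.41 CPM in SHMT2 HKO mice, so the groups did not overlap although the gap was small. The log2 fold change was -1.88 ± 0.52 (adjusted p = 0.032), and the adjusted p was 0.11 without SHMT2 fl/fl mouse 2, 0.094 without SHMT2 fl/fl mouse 3 and 0.090 without SHMT2 HKO mouse 3, over a range of 0.00053 to 0.18 across settings.

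**Figure D4:**
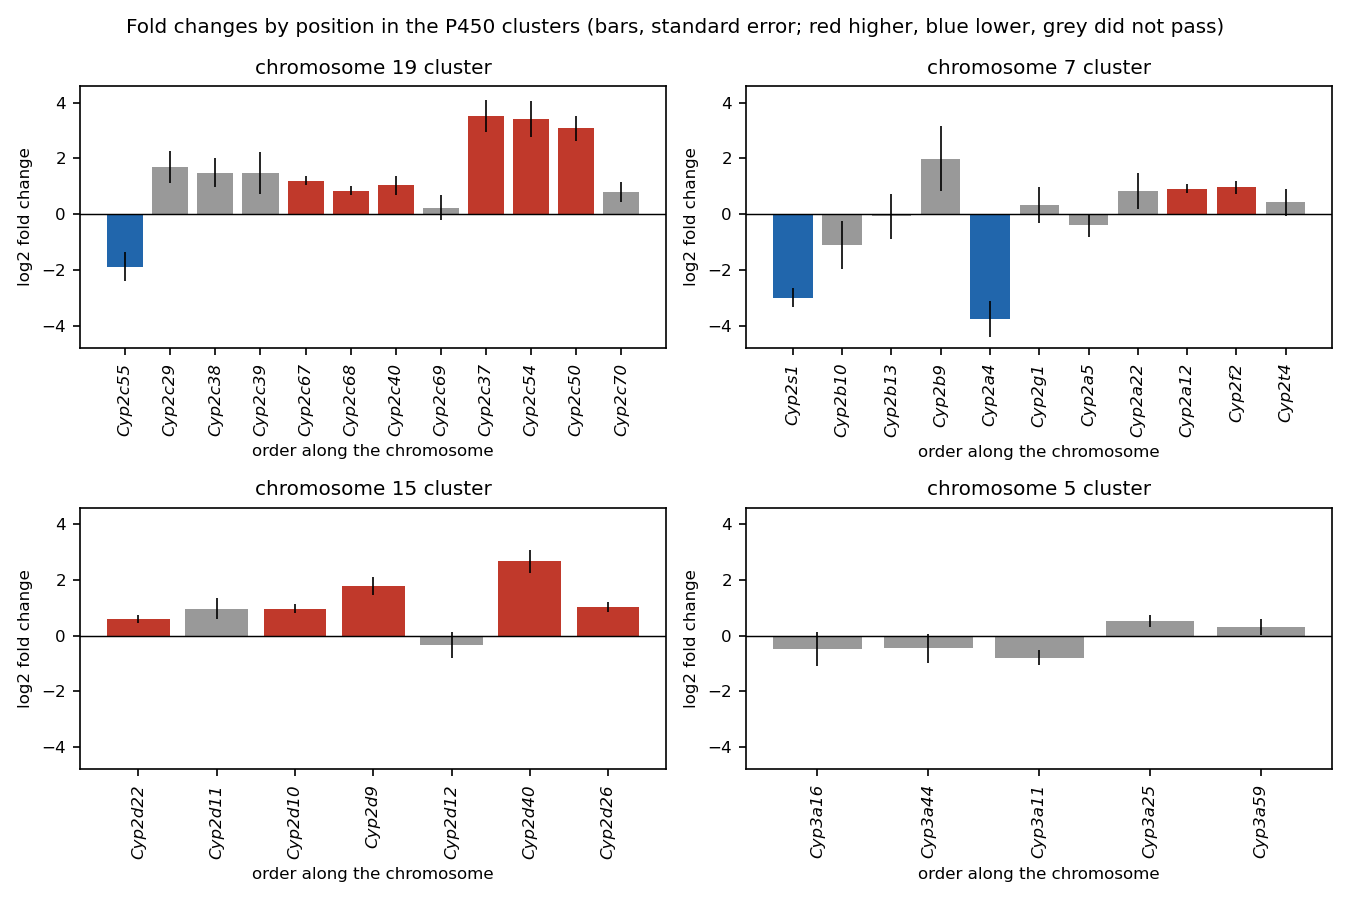
Log2 fold change (bars) with its standard error (lines) of members in the 4 largest gene clusters, in their order along the chromosome. In the chromosome 19 cluster the 3 tallest bars, 3.52, 3.43 and 3.08, are direct neighbours and Cyp2c55 at the end is at -1.88, and in the chromosome 7 cluster Cyp2s1 and Cyp2a4 are at -3.0 and -3.77.

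The Cyp2d cluster on chromosome 15 had 5 of 7 members that rose and none that fell, against 12.5% and 16.5% of all genes. For 6 of the 7 every SHMT2 HKO mouse was above every control, against 21.9% of all genes. Cyp2d40 showed the largest difference, with 21.0, 16.9 and 22.4 CPM in SHMT2 fl/fl and 208.6, 115.8 and 61.8 CPM in SHMT2 HKO mice. Its log2 fold change of 2.68 ± 0.41 (adjusted p = 0.0042) passed in all 16 settings. Cyp2d26, the Cyp2d member with the highest level in controls (335 ± 38.4 RPKM, SD, n = 3), was at 512.8, 556.0 and 641.2 CPM in SHMT2 fl/fl and 1347, 1222 and 932.1 CPM in SHMT2 HKO mice, a log2 fold change of 1.03 ± 0.19 (adjusted p = 0.0064). Cyp2d10 and Cyp2d22 rose by 0.96 and 0.61 log2 units, the latter going to -0.16 with ERCC scaling. The adjusted p of Cyp2d22, 0.016, went above 0.05 when any single control was left out (0.055 to 0.078) and ranged from 0.00025 to 0.79 across settings. Cyp2d11 and Cyp2d12, both under 4 CPM in every mouse, did not pass. The transcripts of Cyp2d10, Cyp2d11 and Cyp2d9 share 14.8, 12.2 and 9.86% of their 100-base words with other genes, so reads from those stretches may not be assignable to a single gene.

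Both members listed as male-biased rose with TMM, against 12.5% of all genes. Neither passed with ERCC scaling (adjusted p = 0.13 for Cyp2d9 and 0.76 for Cyp2u1). Cyp2d9, a testosterone hydroxylase that male livers make in larger amounts, was at 446.3, 204.9 and 301.9 CPM in SHMT2 fl/fl and 1452, 1006 and 815.1 CPM in SHMT2 HKO mice. Its log2 fold change was 1.78 ± 0.32 (adjusted p = 0.0060). Cyp2u1, a fatty acid hydroxylase, was lower in level, at 17.3, 11.2 and 16.2 CPM against 35.9, 30.6 and 25.5 CPM, and rose by 1.04 ± 0.20 log2 units (adjusted p = 0.0068). Neither group of values overlapped. The Cyp2u1 transcript shares 10.4% of its 100-base words with the antisense gene 4930534D22Rik, which had 23 counts over all libraries against 3727 for Cyp2u1.

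Of the 8 members listed as female-biased, Cyp2c40 rose, Cyp2a4 fell and 6 did not pass. Over all genes tested 12.5% rose and 16.5% fell, so these counts were near those shares. Cyp2a4 (chr7:26307169-26315088), a steroid hydroxylase, showed the largest fall of any member. It was at 83.7, 74.8 and 60.1 CPM in SHMT2 fl/fl and 1.06, 10.1 and 5.04 CPM in SHMT2 HKO mice, and the log2 fold change was -3.77 ± 0.64 (adjusted p = 0.0064), 13.6-fold lower. Cyp2a5 (chr7:26835305-26843548), which hydroxylates coumarin and differs from Cyp2a4 at 23 coding bases (98.4% identity), was at 602.5, 906.5 and 776.5 CPM in SHMT2 fl/fl and 336.3, 1004 and 387.0 CPM in SHMT2 HKO mice. The Cyp2a5 groups overlapped, with SHMT2 HKO mouse 2 the highest of all, and the log2 fold change of -0.40 ± 0.41 did not pass (adjusted p = 0.50).

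The count ratio of Cyp2a4 to Cyp2a5 within each mouse was 0.139, 0.0825 and 0.0774 in SHMT2 fl/fl and 0.00315, 0.0101 and 0.0130 in SHMT2 HKO mice. The ratio does not depend on scaling, and the groups did not overlap. As with Cyp2e1 and Cyp3a11, the pair was chosen after its values were seen, so the ratio carries no test. Of the 100-base words of each transcript, 11.2% for Cyp2a4 and 14.4% for Cyp2a5 occur in another gene. The other 2 genes of the subfamily were Cyp2a12, which rose by 0.91 ± 0.16 log2 units (adjusted p = 0.0056) from 351.9 ± 23.9 to 660.8 ± 92.7 CPM (SD, n = 3), and Cyp2a22, whose SHMT2 HKO values of 3.01, 27.4 and 12.9 CPM enclosed those of the controls.

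The Cyp2b members were low and scattered. Cyp2b10, the standard readout of CAR activation, was at 2.52, 6.36 and 7.54 CPM in SHMT2 fl/fl and 0.297, 5.67 and 1.77 CPM in SHMT2 HKO mice (log2 fold change -1.10 ± 0.85, adjusted p = 0.38). Cyp2b9 was at 1.93, 1.62 and 0.835 CPM in SHMT2 fl/fl and at 0.340, 15.8 and 1.5 CPM in SHMT2 HKO mice, so that its log2 fold change of 1.99 ± 1.17 rested on SHMT2 HKO mouse 2 and became -0.66 without it. Cyp2b13 stayed under 1 CPM in every mouse. None of the 3 passed, and their groups overlapped. The windows before the Cyp2b9 and Cyp2b13 starts were 99.2% identical.

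**Figure D5:**
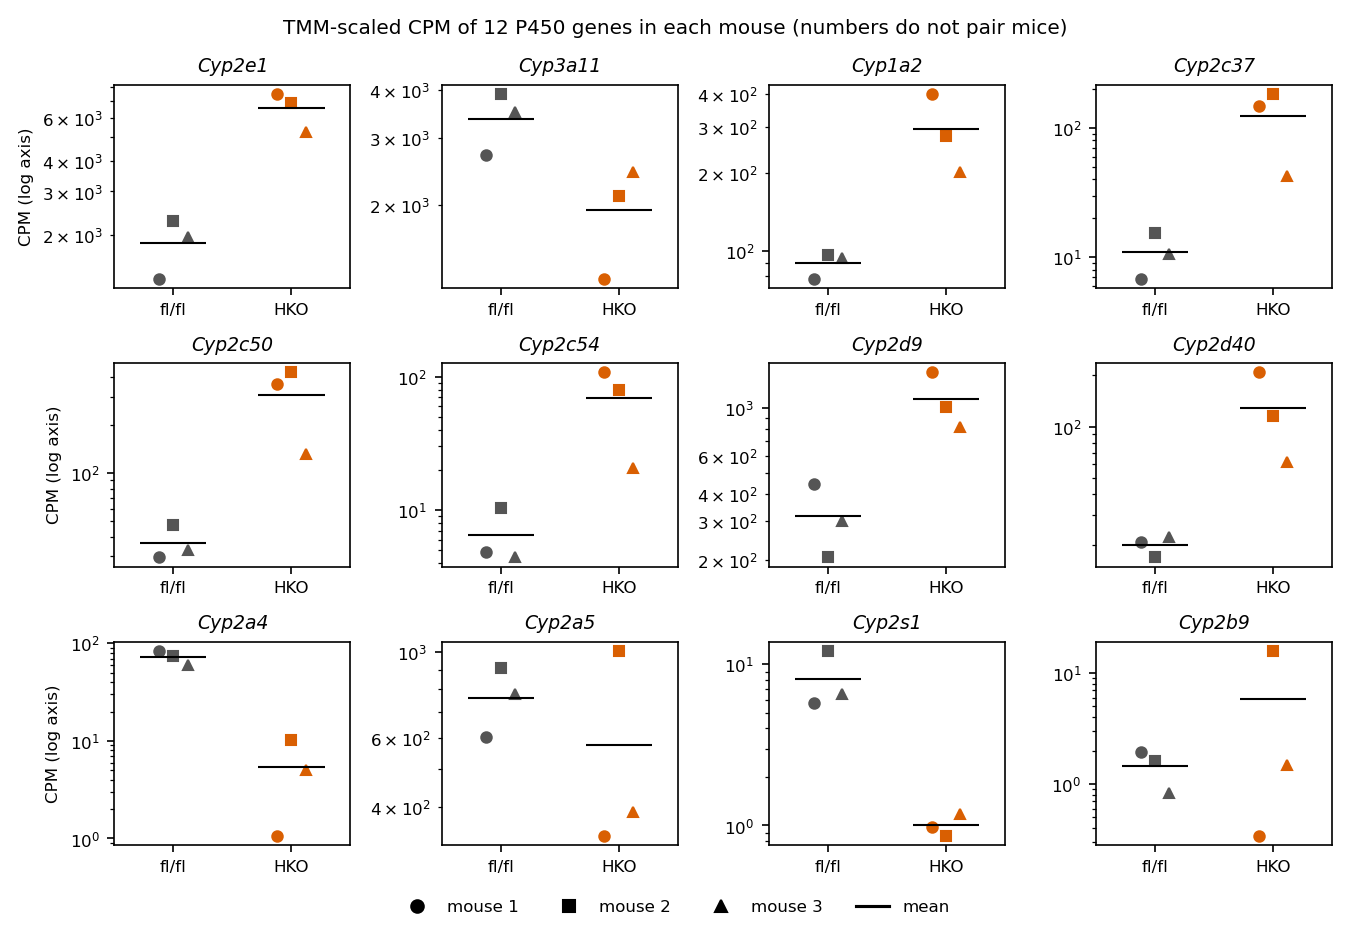
TMM-scaled CPM (log axis, own range in each panel) of 12 members in every mouse, with the group mean as a line, SHMT2 fl/fl at the left and SHMT2 HKO at the right. Cyp2c37, Cyp2c50, Cyp2c54, Cyp2d40, Cyp2e1 and Cyp1a2 lie higher in all 3 SHMT2 HKO mice and lowest in mouse 3 of that group, Cyp2a4 and Cyp2s1 lie lower in all 3, and Cyp2a5 and Cyp2b9 overlap with SHMT2 HKO mouse 2 on top.

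No Cyp3a member passed. Cyp3a11 (chr5:145854426-145879964), the main PXR target and the member with the highest level in controls per kilobase of coding transcript (1438 ± 263 RPKM, SD, n = 3), was at 2700, 3915 and 3498 CPM in SHMT2 fl/fl and 1286, 2121 and 2438 CPM in SHMT2 HKO mice. Every SHMT2 HKO mouse was below every control, the log2 fold change was -0.79 ± 0.27, and the adjusted p was 0.059. It passed in 8 of 16 settings, with adjusted p from 0.0059 to 0.19, among them limma-voom (0.049), DESeq2 (0.012) and the fit without SHMT2 HKO mouse 3 (0.025). Cyp3a25 was at a log2 fold change of 0.53 ± 0.21 (adjusted p = 0.087) with no overlap between groups, and Cyp3a13 at 0.49 ± 0.22 (adjusted p = 0.12), both of which turned negative with ERCC scaling. The female-biased Cyp3a16 and Cyp3a44 stayed under 0.8 CPM in every mouse, and their overlapping groups gave adjusted p of 0.60 and 0.54.

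Cyp2s1 and Cyp1b1 fell besides Cyp2a4 and Cyp2c55, and both are known mainly from tissues other than liver. Cyp2s1, an enzyme of epithelia, was at 5.72, 12.1 and 6.55 CPM in SHMT2 fl/fl and 0.976, 0.861 and 1.18 CPM in SHMT2 HKO mice, a log2 fold change of -3.0 ± 0.35 (adjusted p = 0.0013) that passed in all 16 settings. Cyp1b1, which hydroxylates estradiol, was at 14.9, 14.7 and 11.6 CPM in SHMT2 fl/fl and 1.02, 3.60 and 6.57 CPM in SHMT2 HKO mice. Its log2 fold change was -1.88 ± 0.53 (adjusted p = 0.033). The adjusted p lay between 0.076 and 0.10 when any single control or SHMT2 HKO mouse 2 was left out, and between 0.00099 and 0.19 across settings.

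Markers of cells other than hepatocytes moved with genotype in the same libraries. All 5 cholangiocyte markers fell, and their summed level was 951.4 to 1181 CPM in SHMT2 fl/fl and 127.8 to 244.9 CPM in SHMT2 HKO livers. Of 7 stellate or fibroblast markers 5 fell, with sums of 1182 to 1225 and 217.4 to 616.5 CPM, and of 6 lymphocyte markers 4 fell, with sums of 13.8 to 18.3 and 3.60 to 3.82 CPM. Of 7 macrophage markers 4 fell and Clec4f rose, with sums of 492.3 to 645.5 and 311.0 to 356.5 CPM, and of 5 endothelial markers 2 rose and none fell (Stab2, one of them, went to -0.15 with ERCC scaling), with sums of 125.8 to 149.7 and 202.8 to 235.6 CPM. In bulk liver, fewer cells of a type cannot be told apart from less RNA per cell. The part of these cells in the differences of Cyp2s1, Cyp1b1 or any other member was not tested.

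RNA of extrahepatic tissue was looked for in the same way. Of 4 adipocyte markers, Adipoq, Plin1 and Lep had 63, 100 and 7 counts in SHMT2 HKO mouse 1 and at most 5 in any other library, too few to be tested, while Cfd rose, with 1.10 to 2.90 CPM in SHMT2 fl/fl and 91.1, 62.2 and 10.9 CPM in SHMT2 HKO mice. Of 4 exocrine pancreas markers, Pnlip, Cpa1 and Ctrb1 had at most 2 counts in any library and Cela1 did not pass. Of 4 intestinal markers, Vil1 fell, Fabp2 and Lgals4 rose (Lgals4 went to -0.15 with ERCC scaling), and the defining factor Cdx2 was at 0 in 5 libraries and at 2 counts in SHMT2 HKO mouse 1.

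The remaining members are single representatives of their subfamilies or belong to Cyp2j. Cyp2f2, the periportal member, which activates naphthalene, was at 526.6, 369.5 and 612.7 CPM in SHMT2 fl/fl and 1176, 970.8 and 793.6 CPM in SHMT2 HKO mice. It rose by 0.96 ± 0.23 log2 units (adjusted p = 0.018), with adjusted p of 0.061 and 0.067 without SHMT2 fl/fl mouse 1 or 2 and 0.00013 to 0.82 across settings. The Cyp2f2 exons overlap the antisense gene Gm15883 over 274 bases, but Gm15883 had 1454 counts in all against 121871 for Cyp2f2. Whether strand was used in counting is not known, so reads of such partners cannot be told apart. Cyp2j5, an arachidonic acid epoxygenase, was at 236.3, 240.0 and 251.7 CPM against 545.1, 653.3 and 459.2 CPM and rose by 1.19 ± 0.17 log2 units (adjusted p = 0.0024), while Cyp2j6 and Cyp2j9 had overlapping groups and did not pass.

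Cyp2r1, which hydroxylates vitamin D, was at 7.0, 5.15 and 7.15 CPM in SHMT2 fl/fl and 13.0, 15.3 and 8.07 CPM in SHMT2 HKO mice and rose by 0.91 ± 0.26 log2 units (adjusted p = 0.030). The adjusted p lay between 0.075 and 0.10 when any single control or SHMT2 HKO mouse 2 was left out, and between 0.0049 and 0.97 across settings. Cyp2g1, an enzyme of the olfactory mucosa, and Cyp2t4 were between 0.104 and 1.10 CPM in every mouse and did not pass (adjusted p = 0.73 and 0.54). Cyp2t4 shares 11 exon bases with Egln2 on the other strand, which had 16139 counts against 96 for Cyp2t4.

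The spread among mice was described for each genotype on the TMM scale, with no test. The median ratio of the highest to the lowest mouse was 1.93 over the 46 members in SHMT2 HKO and 1.48 in SHMT2 fl/fl livers, and it was larger in SHMT2 HKO for 36 members. Of the 18 members that rose, 17 were lowest in SHMT2 HKO mouse 3 and 11 were highest in mouse 1. On the same scale mouse 3 had the lowest level of pericentral genes outside the families and the highest stellate or fibroblast marker sum of its group. The order of these mice depends on the scaling. ERCC counts were 822170, 583318 and 352648 in SHMT2 HKO mice 1 to 3, and Cyp2e1 counts were 176608, 136339 and 133070. Relative to the spike-in, Cyp2e1 and the summed pericentral genes outside the families were highest in mouse 3. Leaving out SHMT2 HKO mouse 1, 2 or 3 gave 20, 16 and 22 members that rose, against 12, 6.72 and 15.0% of all genes, and 4 that fell each time, against 17.4, 11.3 and 18.3%. Leaving out SHMT2 fl/fl mouse 1, 2 or 3 gave 14 that rose each time, against 5.76, 5.2 and 4.93% of all genes, and 3, 2 and 2 that fell, against 10.8, 10.2 and 9.92%. Of the members that rose, 13 of 18, and of those that fell, 2 of 4, passed whichever mouse was left out. The same share over all genes that passed is not given here, so these counts have no background.

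The genes that serve these enzymes were read from lists, whose counts stand against 12.5% of all genes that rose and 16.5% that fell. Of 5 electron donor genes 4 rose. Por itself was at 556.0, 1296 and 936.3 CPM in SHMT2 fl/fl and 1019, 1398 and 969.3 CPM in SHMT2 HKO mice and did not pass (log2 fold change 0.28 ± 0.30, adjusted p = 0.53), and Cyb5b, a cytochrome b5, had the largest rise, 1.13 ± 0.21 (adjusted p = 0.0064). Of 8 heme synthesis genes 6 rose. Alas1, the rate-limiting enzyme, was at 502.9, 624.1 and 542.6 CPM against 1018, 953.0 and 1263 CPM and rose by 0.95 ± 0.18 log2 units (adjusted p = 0.0064), and Cpox rose most, by 1.21 ± 0.14 log2 units (adjusted p = 0.0014). With ERCC scaling none of these 13 genes passed, and some that rose with TMM went below 0, among them Cyb5a, Pgrmc1, Alad, Uros and Urod. The 10 genes that passed became 4 or 5 when any single control or SHMT2 HKO mouse 2 was left out.

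Of 12 regulators of P450 genes 11 could be tested, and 4 rose and none fell with TMM, against 12.5% and 16.5% of all genes. Not all of these 4 stayed above 0 with ERCC scaling. Nr1i3, which encodes CAR, was at 33.2, 52.7 and 38.2 CPM in SHMT2 fl/fl and 159.2, 174.4 and 88.9 CPM in SHMT2 HKO mice and rose by 1.77 ± 0.28 log2 units (adjusted p = 0.0037). Ppara and Cebpa also rose, at log2 fold changes of 1.10 and 0.73. Nr1i2, which encodes PXR, was at 108.8 ± 23.4 and 137.3 ± 31.0 CPM (SD, n = 3, adjusted p = 0.27) and Ahr at 24.9 ± 3.63 and 20.8 ± 4.24 CPM (adjusted p = 0.31), both with overlapping groups. Of 5 regulators of sex-biased liver genes, the factor Onecut1 rose by 2.42 ± 0.27 log2 units (adjusted p = 0.0013) and the growth hormone receptor Ghr by 1.15 ± 0.15 log2 units (adjusted p = 0.0021), and Stat5b, Bcl6 and Cux2 did not pass. With ERCC scaling only Onecut1 of these 2 lists passed.

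Targets of the same receptors outside the families gave 2 genes that rose and 1 that fell. Over all genes tested 12.5% rose, 16.5% fell and 29.0% passed in either direction, so the count of targets that passed was near that share. Of 4 Ahr targets 3 could be tested, and the conjugating enzyme Ugt1a6a rose by 0.70 ± 0.21 log2 units (adjusted p = 0.039, -0.021 with ERCC scaling) while Nqo1 and Tiparp did not pass. Of 7 CAR and PXR targets, Ugt1a1, which conjugates bilirubin, rose by 1.28 ± 0.16 log2 units (adjusted p = 0.0017), the stress gene Gadd45b fell by 1.83 ± 0.37 log2 units (adjusted p = 0.0094), and 5 did not pass. Over both lists 5 genes passed without SHMT2 HKO mouse 1.

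Genes that mark the liver zones outside the families were compared in the same fit. Of 10 pericentral genes 6 rose and none fell, against 12.5% and 16.5% of all genes. Their summed level was 1079 to 1538 CPM in SHMT2 fl/fl and 2828 to 5334 CPM in SHMT2 HKO livers. Oat, an ornithine aminotransferase, rose most, by 2.24 ± 0.43 log2 units (adjusted p = 0.0077), and glutamine synthetase, Glul, was at 381.1, 668.6 and 408.6 CPM against 1962, 2502 and 1403 CPM and rose by 2.01 ± 0.30 log2 units (adjusted p = 0.0028). Among the 4 pericentral genes that did not pass were Axin2 and Nkd1, with log2 fold changes of 0.01 and -0.17. Of 9 periportal genes none rose and Cdh1, an epithelial cadherin that cholangiocytes also make, fell by 2.02 ± 0.25 log2 units (adjusted p = 0.0017), with summed levels of 7741 to 10010 CPM in SHMT2 fl/fl and 7299 to 11770 CPM in SHMT2 HKO livers. Over both zone lists, the 7 genes that passed became 11 without SHMT2 HKO mouse 3, and with ERCC scaling 4 passed.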

How the data were processed

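Liver RNA from 3 SHMT2 fl/fl and 3 SHMT2 HKO male mice was sequenced by the authors as paired reads. The deposited values are raw counts per gene: per the study's methods and the submitters' processing notes, reads were trimmed with Trimmomatic 0.36, aligned with STAR 2.5.2b to GRCm38 (mm10) with ERCC sequences, and unique hits were counted (featureCounts, Subread 1.5.2). The use of strand in counting is not given in the sources used here.

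The 92 ERCC entries entered neither the library totals nor the tests. No symbol was found for 345 of the 49671 IDs (0.0416% of counts). Genes kept by filterByExpr (16089, all 46 members included) were fitted with edgeR 4.0.16 (R 4.3.3) after TMM scaling, with robust quasi-likelihood F-tests of SHMT2 HKO against SHMT2 fl/fl and Benjamini-Hochberg adjustment over all of them. The fit was tested on simulated data. CPM are TMM-scaled, and RPKM divide them by the length of the longest coding GENCODE M21 transcript. Members are ranked by level as RPKM, while the Cyp2a4 to Cyp2a5 ratio uses counts and sums over markers and lists use CPM. DESeq2 1.42.0, limma-voom (limma 3.58.1), other scalings and filters, a replicate block and leaving out each mouse were alternatives. A share or floor covers counting error only, and p-values measure the spread between these mice.

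The members and the lists were chosen with earlier results of these data known. Named are, per subfamily, the member with the highest RPKM in SHMT2 fl/fl livers and the passing members with the largest rise and fall, single-member subfamilies, members of the sex-biased and zone lists, and in lists outside the families Por, Alas1, Ahr, Nr1i2, Nr1i3 and the passing genes with the largest rise and fall. Further genes are named to account for all members. Some genes counted in the lists and a motif searched are not reported here. Of the 6 hepatocyte markers listed, 5 matched a symbol. Replicate libraries differed by more than sampling noise (chi-square per gene 23.6 to 140.1).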

Additional observations from a re-analysis of the deposited data

How the results depend on the processing

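Of the 8 summary values, the fold change of Shmt2 kept its direction and call in every setting run. With ERCC scaling the counts became 5 members higher and 7 lower (0.665% and 17.1% of all genes). Of the lists, 0 heme synthesis and electron donor genes, 1 regulator and 4 zone genes passed. The summed P450 level became a log2 ratio of 0.12. Scaling to the library total gave 3 heme synthesis and electron donor genes and a summed log2 ratio of 0.47, and upper-quartile factors gave 6 such genes. Without a filter beyond 1 count 2 members were lower, against 8.74% of all genes. DESeq2 gave 5 targets outside the families, as did an unadjusted p under 0.05 with an adjusted p under 0.25. The length of merged exons, tried after seeing the data, gave a summed log2 ratio of 1.02 and put Cyp2e1, not Cyp3a11, at the highest level in controls.

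Leaving out each mouse in turn gave 14 to 22 members higher (4.93 to 15.0% of all genes), 2 to 4 lower (9.92 to 18.3%; 2 without SHMT2 fl/fl mouse 2 or 3), 4 to 10 heme synthesis and electron donor genes (4 without SHMT2 fl/fl mouse 1 or 3, 5 without SHMT2 fl/fl mouse 2 or SHMT2 HKO mouse 2), 4 to 8 regulators, 2 to 5 targets (5 without SHMT2 HKO mouse 1), 5 to 11 zone genes (11 without SHMT2 HKO mouse 3) and a summed log2 ratio of 0.81 to 1.04.

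Some log2 fold changes of members that did not pass changed sign, and so did Cyp2d22. With the library total these were Cyp2c23 (-0.15), Cyp2c69 (-0.20), Cyp2g1 (-0.12), Cyp2j6 (-0.19), Cyp2t4 (-0.016) and Cyp3a59 (-0.14). With ERCC scaling they were Cyp2c23 (-0.55), Cyp2c69 (-0.48), Cyp2c70 (-0.13), Cyp2d22 (-0.16), Cyp2g1 (-0.59), Cyp2j6 (-0.49), Cyp2t4 (-0.49), Cyp3a13 (-0.36), Cyp3a25 (-0.27) and Cyp3a59 (-0.49). Over the fits without 1 mouse they were Cyp2a22 (-0.0060 to 1.32), Cyp2b13 (-0.53 to 0.67), Cyp2b9 (-0.66 to 2.55), Cyp2c23 (-0.030 to 0.46), Cyp2c69 (-0.10 to 0.54), Cyp2d12 (-0.59 to 0.33), Cyp2g1 (-0.093 to 0.72), Cyp2j9 (-0.29 to 0.015), Cyp2t4 (-0.19 to 0.67), Cyp3a44 (-0.70 to 0.026) and Cyp3a59 (-0.12 to 0.50). Apart from fewer samples in the last set, the cause was not tested.

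The mouse numbers do not pair the groups: deviations of same-numbered mice from their group means correlated at -0.046, 0.013 and -0.077. With the number as a replicate block, 17 members were higher and 4 lower (8.68% and 13.6% of all genes), the heme synthesis and electron donor count became 5, and Shmt2 was at -2.05.

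With 3 mice per group, members under about 1 CPM rest on few counts, and an adjusted p above 0.05 does not show that they are unchanged. The sequence that near-identical genes share was computed from transcripts, not from the reads. Which scaling reflects RNA per cell was not tested.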

Other observations

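Genes close to the members that the symbol rule left out were read as counts. Cyp2d37-ps, a pseudogene of the Cyp2d cluster, had 808, 397 and 837 counts in SHMT2 fl/fl mice 1 to 3 and 1351, 969 and 1105 counts in SHMT2 HKO mice 1 to 3. Cyp2d41-ps had 90, 26 and 61 counts against 95, 53 and 52. Cyp3a41a, a female-biased gene, had 14, 5 and 13 counts against 1, 6 and 13, and Cyp3a41b had at most 1 count in any library. Among the matching genes below the minimum, Cyp3a57 had the most, with 21, 4 and 9 counts in SHMT2 fl/fl and 2, 0 and 13 counts in SHMT2 HKO mice.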
